A study of Mus musculus with 6 samples.

Results

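Collagens are the structural proteins of the extracellular matrix. Their chains wind around each other into rope-like helices, and the chain composition decides whether a collagen forms tensile fibrils, the sheet-like network of basement membranes, a coat on the surface of other fibrils (the FACIT collagens, fibril-associated collagens with interrupted helices) or a beaded filament, a fine network or a membrane-anchored protein. In the lung, fibrillar collagens I and III give tensile strength to airway and vessel walls, and collagen IV underlies the epithelium and endothelium where gas is exchanged. All mouse genes whose symbol reads Col, a number, a and a number were taken. They were 42 of the 18193 genes that could be read from the arrays, and they were covered by 82 of 45037 probe sets (groups of short probes against a transcript). No collagen probe set carried the symbol of a second gene. The annotation holds 44 such genes, and Col6a6 and Col28a1 have no probe set with a single symbol, so neither has a value here. By class, 11 of the 42 genes encode fibrillar chains, 8 basement membrane chains, 9 FACIT chains and 14 other chains.

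The samples were left upper lung lobes of C57BL/6 mice of 6 to 10 weeks, 2 from CC10-rtTA-IL13 transgenic animals (IL13-TG) and 4 from wild-type animals (WT). In the transgenic line a doxycycline-dependent activator under the CC10 promoter, which is active in club cells of the airway, switches on IL13, a cytokine of allergic airway inflammation. Animals of both genotypes drank doxycycline at 2 mg/mL for 7 days, so WT lungs carry any effect of the drug as well. Total RNA of the lobe was measured on Affymetrix mouse arrays, with 1 array for each sample and replicates labelled as biological, so the p-values describe the spread between these animals.

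The values are log2 intensities after RMA, a method that corrects background, normalizes the arrays to each other and summarises the probes of a probe set. Lung genes were high in all 6 arrays: Sftpc, the surfactant protein C gene of alveolar type II cells, averaged 15.15 ± 0.06 in IL13-TG and 15.12 ± 0.04 in WT lungs (SD, n = 2 and 4). The Il13 probe set read 4.24 and 4.09 in IL13-TG lungs, against 3.84, 3.72, 4.03 and 3.79 in WT lungs (log2 difference 0.32 ± 0.12, SE; adjusted p = 0.113 in limma). The IL13-TG values lay above all WT values, and no source here says whether the probes match the transgene's transcript. Heart muscle genes stood apart between arrays: the mean log2 value of 10 markers was 7.02 and 4.84 in IL13-TG lungs, against 8.28, 7.56, 8.11 and 9.96 in WT lungs. Fat markers (10 genes) had means of 6.92 and 5.18 in IL13-TG lungs, against 7.71, 7.13, 7.77 and 9.19 in WT lungs. On both lists IL13-TG replicate 2 was the lowest array and WT replicate 4 the highest. The counts of calls and the differences of single genes were therefore also computed without these 2 arrays, a choice made after seeing the data.

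The comparison asked which collagen chains differ in expression after 7 days of IL13 in the airway. The gene of fibrillar collagen III, Col3a1, and the FACIT gene Col14a1 were higher in IL13-TG lungs, by 2.65-fold and 2.53-fold. Genes of the basement membrane chains Col4a3, Col4a5 and Col4a6 were lower by 1.61-fold, 1.76-fold and 1.60-fold, and the FACIT gene Col12a1 was lower by 2.80-fold. Of the remaining chains, Col8a2, Col13a1 and Col23a1 were lower by 1.87-fold, 1.78-fold and 2.18-fold. Collagen I, the main fibrillar collagen of the lung, did not pass on the probe sets read for its genes.

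Thus 2 of 42 collagen genes were higher (4.76% against 8.43% of all 18193 genes) and 7 were lower (16.7% against 10.5%), at an adjusted p under 0.05 by limma with Benjamini-Hochberg adjustment over all genes. The median log2 difference of the 42 genes was 0.08, against -0.00 over all genes, and 25 of the 42 differences were positive. At an unadjusted p under 0.05 there were 17 of 42 collagen genes, where 32% of all genes (5830 of 18193) reached that level. In 7 collagen genes both IL13-TG values lay above all WT values (19.7% of all genes), in 11 they lay below (22% of all genes), and in 24 the ranges overlapped. Because these are whole lobes, fewer cells of a type and less RNA per cell cannot be told apart. Single arrays moved these counts: without IL13-TG replicate 1 there were 0 higher and 5 lower collagen genes, without IL13-TG replicate 2 there were 0 and 3, and without WT replicate 1 there were 1 and 5. Without WT replicate 4 there were 3 higher and 8 lower collagen genes, and without IL13-TG replicate 2 and WT replicate 4 together 3 and 4. Calls over all genes fell as well without either IL13-TG replicate, and to 1133 higher and 1245 lower without WT replicate 1. The falls in these fits were thus not particular to collagens. Col4a5 and Col13a1 were called lower under all 18 alternative settings and Col12a1 under 17. Most of these settings read the same probe set for a gene. The further probe sets of Col12a1 did not follow its fall, and their mean with it differed by -0.28.

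**Figure D1:**
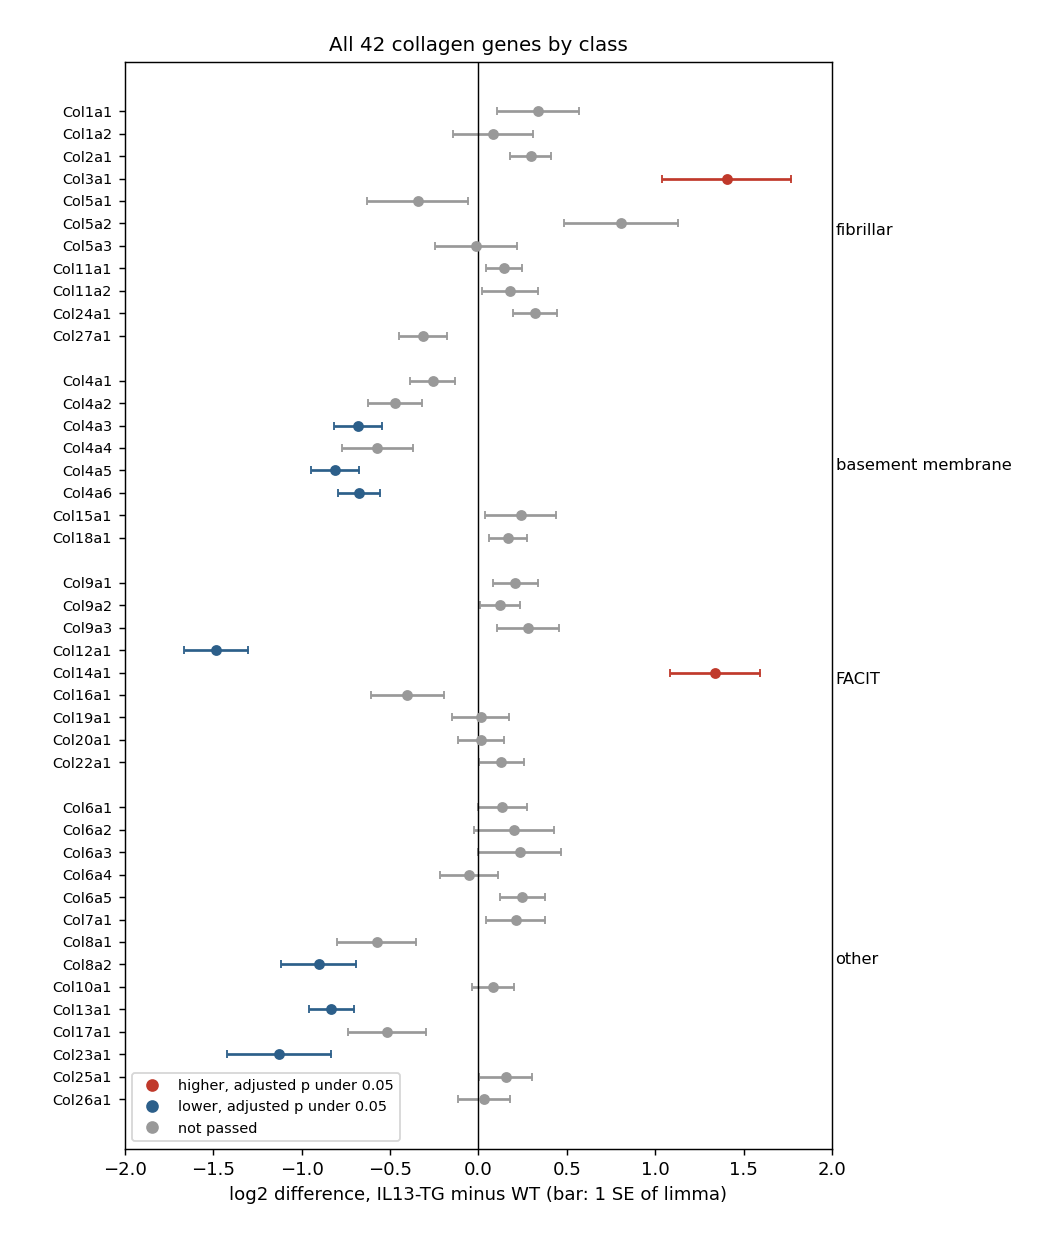
Log2 difference, IL13-TG minus WT, of all 42 collagen genes by class. Points are limma estimates from 2 and 4 arrays and bars 1 SE; red marks genes called higher, blue genes called lower and grey genes that did not pass. The basement membrane genes Col4a1 to Col4a6 all lie left of 0, from -0.81 to -0.26.

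Among the 11 fibrillar genes 1 was higher and 0 were lower, against 8.43% and 10.5% of all genes. An unadjusted p under 0.05 in limma was reached by 5, as by 32% of all genes. The median log2 difference was 0.18, with a range of -0.34 to 1.40. Col3a1, whose chain forms the thin, pliable fibrils of collagen III, read 12.77 and 12.46 in IL13-TG lungs, against 10.71, 10.59, 11.61 and 11.93 in WT lungs. Both IL13-TG lungs lay above the WT range, and within WT the replicates 3 and 4 read higher than 1 and 2. The log2 difference was 1.40 ± 0.36 (SE; adjusted p = 0.0303 in limma). The call was lost without IL13-TG replicate 1 (adjusted p = 0.197), IL13-TG replicate 2 (0.109) or WT replicate 1 (0.0677), while the difference stayed between 1.20 and 2.01 over all alternatives.

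Col3a1 is the only fibrillar gene that passed, so its promoter region is shown; it is the 300 bases of chr1:45311288-45311587 (GRCm38.p6, plus strand) from 250 before to 50 after the start that RefSeq annotates. It holds no GC box and no CCAAT box (defined with the collagen IV promoters), and 1 match to TATAAA on either strand, which is not capitalised.
Col3a1: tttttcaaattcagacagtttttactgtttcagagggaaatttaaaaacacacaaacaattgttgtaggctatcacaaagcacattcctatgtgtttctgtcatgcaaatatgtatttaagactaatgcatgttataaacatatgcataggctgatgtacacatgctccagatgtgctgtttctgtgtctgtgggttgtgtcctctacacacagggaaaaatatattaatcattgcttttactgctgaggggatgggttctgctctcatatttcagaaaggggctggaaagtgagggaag

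Col1a1 and Col1a2 encode the chains of collagen I. Col1a1 read 7.59 and 7.31 in IL13-TG lungs, against 6.66, 6.96, 7.56 and 7.27 in WT lungs. The ranges overlapped, and the log2 difference of 0.34 ± 0.23 (SE) did not pass (adjusted p = 0.361 in limma). Col1a2 read 11.65 and 11.20 in IL13-TG lungs, against 10.97, 11.14, 11.70 and 11.56 in WT lungs, with overlapping ranges and a difference of 0.08 ± 0.23 (adjusted p = 0.84). A second probe set of Col1a1, however, read 7.72 and 7.34 in IL13-TG lungs, against 5.80, 5.85, 6.77 and 6.87 in WT lungs. Those ranges did not overlap, and the log2 difference was 1.21 ± 0.32 (adjusted p = 0.0465 over all probe sets, limma). The second Col1a2 probe set also had both IL13-TG values above WT, with a log2 difference of 1.02 ± 0.37 (adjusted p = 0.121). The result for collagen I therefore depended on the probe set, and which of them follows the transcripts was not tested.

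Col5a2, a chain of collagen V, which joins collagen I fibrils and limits their width, read 10.62 and 9.64 in IL13-TG lungs, against 9.17, 8.81, 9.52 and 9.80 in WT lungs. WT replicate 4 lay above IL13-TG replicate 2, and the log2 difference of 0.81 ± 0.32 did not pass (adjusted p = 0.122 in limma). Without those 2 arrays, which narrowed it, the difference was 1.45. The partner chain genes Col5a1 and Col5a3 had differences of -0.34 and -0.02. Col2a1, Col11a1 and Col11a2, chains of cartilage fibrils, and Col24a1 had differences of 0.14 to 0.32, and Col27a1 of -0.32. Col11a1 and Col24a1 were near the floor in both genotypes, which here means a group mean below log2 3.79, the 25th percentile of all values. Cartilage markers, which would mark airway cartilage in the lobe, were higher for 1 of 14 genes (Sox9 1.19) and lower for 2 (Cytl1 -2.44 and Chad -1.13). Among all genes 8.43% were higher and 10.5% lower, and 5 of the 14 markers were near the floor in both genotypes. Their mean was 4.56 and 4.53 in IL13-TG lungs, against 4.56 to 4.71 in WT lungs. Without IL13-TG replicate 1, IL13-TG replicate 2 or WT replicate 3 the count of lower markers was 1, and without WT replicate 4 the count of higher ones was 2. Chad was not called without IL13-TG replicate 1 (adjusted p = 0.224), IL13-TG replicate 2 (0.11) or WT replicate 3 (0.0557).

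**Figure D2:**
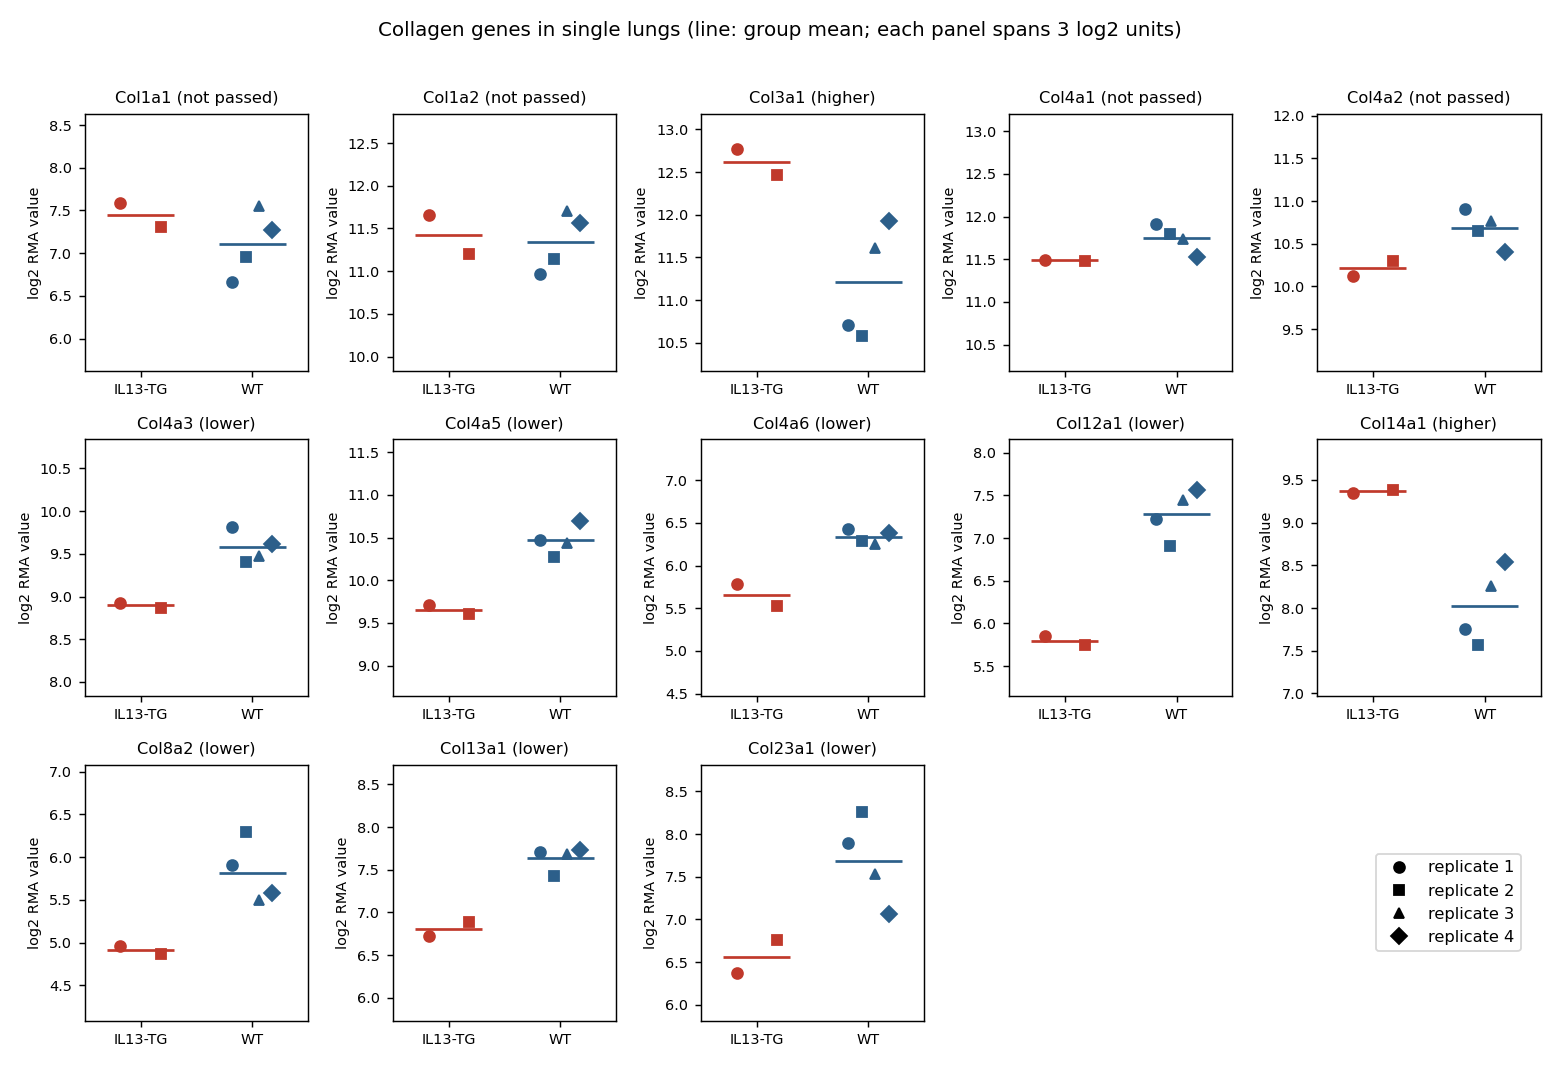
RMA log2 values, in every lung, of the 9 called collagen genes and of Col1a1, Col1a2, Col4a1 and Col4a2, IL13-TG left and WT right, with a line at the group mean and a symbol for each replicate number; every panel spans 3 log2 units. The panels of the 9 called genes show no overlap (of all genes 19.7% lay above the WT range and 22% below it), whereas the Col1a1 and Col1a2 panels do.

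Basement membrane genes had the lowest median of the 4 classes. Of the 8 genes 0 were higher and 3 were lower, against 8.43% and 10.5% of all genes. An unadjusted p under 0.05 in limma was reached by 5, as by 32% of all genes. The median log2 difference was -0.52. In 6 of the 8, the whole of Col4a1 to Col4a6, both IL13-TG lungs lay below all WT lungs, as they did in 22% of all genes. Over probe sets, 7 of 15 were lower and 0 higher, against 5.99% and 5.39% of all probe sets. The 7 belonged to Col4a3, Col4a4, Col4a5 and Col4a6, so several are repeat readings of the same gene.

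The collagen IV genes lie in pairs whose starts face away from each other. Their log2 differences were all negative, so any pairing of them would share a sign. The promoter windows of 5 of them are shown. Each is the 300 bases from 250 before to 50 after the RefSeq start, in GRCm38.p6, read 5′ to 3′ on the strand of the gene. Capitals mark the GC box GGGCGG and the CCAAT box, each matched on either strand. Col4a5 (chrX:141475169-141475468, plus) and Col4a6 (chrX:141474027-141474326, minus) are separated by 842 bases. Col4a4 lies at chr1:82586800-82587099 (minus), and the annotated start of Col4a3 falls inside that window. Col4a1 (chr8:11312777-11313076, minus) and Col4a2 (chr8:11312555-11312854, plus) share 78 bases.
Col4a5: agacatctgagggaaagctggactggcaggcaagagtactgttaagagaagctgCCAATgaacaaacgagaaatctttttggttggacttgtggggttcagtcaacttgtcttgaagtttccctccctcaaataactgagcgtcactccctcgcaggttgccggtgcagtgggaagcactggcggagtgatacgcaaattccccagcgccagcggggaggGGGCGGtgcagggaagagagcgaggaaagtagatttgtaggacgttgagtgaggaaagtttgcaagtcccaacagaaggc
Col4a6: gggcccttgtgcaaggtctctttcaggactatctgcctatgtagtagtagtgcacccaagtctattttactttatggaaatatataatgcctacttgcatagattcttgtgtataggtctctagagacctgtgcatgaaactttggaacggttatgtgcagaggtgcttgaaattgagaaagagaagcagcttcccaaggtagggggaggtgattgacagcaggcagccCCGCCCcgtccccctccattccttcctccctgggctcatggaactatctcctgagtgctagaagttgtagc
Col4a4: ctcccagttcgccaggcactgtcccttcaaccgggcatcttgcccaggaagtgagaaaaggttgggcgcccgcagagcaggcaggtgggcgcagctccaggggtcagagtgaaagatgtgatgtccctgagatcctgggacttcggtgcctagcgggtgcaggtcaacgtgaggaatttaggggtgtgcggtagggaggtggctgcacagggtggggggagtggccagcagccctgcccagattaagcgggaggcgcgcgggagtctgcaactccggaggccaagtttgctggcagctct
Col4a1: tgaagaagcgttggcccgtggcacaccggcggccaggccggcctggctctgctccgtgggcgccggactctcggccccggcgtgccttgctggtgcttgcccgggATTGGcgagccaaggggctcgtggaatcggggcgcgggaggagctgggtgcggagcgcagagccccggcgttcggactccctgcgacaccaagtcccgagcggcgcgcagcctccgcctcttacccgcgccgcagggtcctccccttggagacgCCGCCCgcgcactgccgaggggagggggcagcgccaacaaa
Col4a2: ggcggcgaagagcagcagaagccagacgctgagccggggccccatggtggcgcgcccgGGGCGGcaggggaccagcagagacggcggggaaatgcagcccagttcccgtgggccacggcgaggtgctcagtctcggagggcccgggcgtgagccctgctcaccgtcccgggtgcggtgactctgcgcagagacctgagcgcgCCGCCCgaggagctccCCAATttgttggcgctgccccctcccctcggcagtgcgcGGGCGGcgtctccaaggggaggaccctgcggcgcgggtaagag

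Windows were found for 33 of the 42 collagen genes, 36 windows in all. A GC box was present in 22 of the 36 collagen windows (61.1%), against 35.7% of 32851 windows of all genes. A CCAAT box was present in 13 (36.1%, against 37.4%) and TATAAA in 5 (13.9%, against 13.6%). The letters TTC and GAA with 4 bases between them, read on both strands, were in 0 of the 36 windows, against 6.95% of all windows. These are letter matches in a short window and no measure of binding.

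The chains of Col4a3, Col4a4 and Col4a5 form a network of their own, which in the lung lies in the alveolar wall. Col4a3 read 8.93 and 8.86 in IL13-TG lungs, against 9.82, 9.41, 9.48 and 9.61 in WT lungs. The ranges did not overlap, and the log2 difference was -0.68 ± 0.14 (SE; adjusted p = 0.0102 in limma). It was not called without IL13-TG replicate 1 (adjusted p = 0.0683), IL13-TG replicate 2 (0.0772), or IL13-TG replicate 2 and WT replicate 4 together (0.0962). Col4a5 read 9.71 and 9.60 in IL13-TG lungs, against 10.47, 10.27, 10.43 and 10.70 in WT lungs. Every WT lung was above both IL13-TG lungs. The log2 difference was -0.81 ± 0.14 (adjusted p = 0.00482), and it remained between -0.88 and -0.68 over the alternatives.

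Col4a4 read 10.24 and 10.01 in IL13-TG lungs, against 10.74, 10.26, 10.77 and 11.02 in WT lungs. The groups did not overlap, with WT replicate 2 close to IL13-TG replicate 1, and the log2 difference of -0.57 ± 0.20 did not pass (adjusted p = 0.0828 in limma). Without WT replicate 2, the lowest WT array, it was -0.72 (adjusted p = 0.011), but leaving out that array favours a call. The other 2 probe sets of Col4a4 were called lower, at -0.61 (adjusted p = 0.0447 over all probe sets) and -0.54 (0.0244). Both probe sets of Col4a3 and both of Col4a5 were called lower too.

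Col4a6, whose chain joins that of Col4a5 in basement membranes of smooth muscle and bronchial epithelium, read 5.79 and 5.53 in IL13-TG lungs, against 6.42, 6.29, 6.25 and 6.38 in WT lungs. The groups were apart, with a log2 difference of -0.68 ± 0.12 (adjusted p = 0.00612 in limma). It was not called without IL13-TG replicate 2 (0.0608), nor without that array and WT replicate 4 (0.0741). Its second probe set had a difference of -0.27 and did not pass (adjusted p = 0.242).

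Col4a1 and Col4a2 encode the chains of the collagen IV found in nearly all basement membranes. Col4a1 read 11.49 and 11.48 in IL13-TG lungs, against 11.91, 11.80, 11.74 and 11.53 in WT lungs, and its log2 difference of -0.26 ± 0.13 did not pass (adjusted p = 0.207 in limma). Col4a2 read 10.12 and 10.30 in IL13-TG lungs, against 10.91, 10.65, 10.77 and 10.41 in WT lungs, with a difference of -0.47 ± 0.15 (adjusted p = 0.064). Neither gene's ranges overlapped. Col4a2 was called without WT replicate 4, its lowest WT array (-0.57, adjusted p = 0.02), a choice that favours a call. Col15a1 and Col18a1, which encode basement membrane proteoglycan-like collagens that release the fragments restin and endostatin, had differences of 0.24 (adjusted p = 0.46) and 0.17 (0.335). Without WT replicate 4, which was the highest array for Col15a1, that gene's difference was 0.41 (adjusted p = 0.0404), and this choice too favours a call.

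Within each array, the mean of Col4a3, Col4a4 and Col4a5 minus the mean of Col4a1 and Col4a2 was -1.18 and -1.40 in IL13-TG lungs, against -1.07, -1.25, -1.02 and -0.53 in WT lungs. The ranges overlapped, and the group difference of -0.32 on the log2 scale had an exact two-sided permutation p = 0.267. This test cannot give a p below 0.133 for 2 against 4 samples, so it could not have passed at 0.05. Only the change of this quantity between genotypes can be read, since levels of different probe sets are not on 1 scale.

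Markers of alveolar type I cells, the flat cells of the alveolar wall, were lower in the same lungs. Of 12 markers 9 were lower and 0 higher, against 10.5% and 8.43% of all genes, with a median log2 difference of -0.64. Akap5 (-1.02), Rtkn2 (-0.90), Hopx (-0.89) and Cav1 (-0.71) had the largest differences among them. Their mean was 11.57 and 11.72 in IL13-TG lungs, against 12.16 to 12.31 in WT lungs, and without IL13-TG replicate 1 the count of lower markers was 5. Of 18 endothelial markers 9 were lower and 1 higher, with a median of -0.86 and means of 8.60 and 8.85 in IL13-TG lungs, against 9.18 to 9.76 in WT lungs. Ednrb (-1.60), Ramp2 (-1.52), Tek (-1.31) and Eng (-1.18) led the lower ones. The higher marker was Car4, which on the mean of its probe sets had 0.82 and was not called (adjusted p = 0.0553 in limma). Without IL13-TG replicate 1 the counts were 3 lower and 0 higher, and Ramp2 (adjusted p = 0.276) and Eng (0.101) were not called. Without IL13-TG replicate 2 the adjusted p was 0.0705 for Ramp2 and 0.0734 for Eng, and for Ramp2 it was 0.0897 without WT replicate 1 and 0.0776 without WT replicate 3. None of the alveolar type I or endothelial markers was near the floor in both genotypes. Their part in the collagen IV result was not tested.

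Of the 9 FACIT genes 1 was higher and 1 lower, against 8.43% and 10.5% of all genes. An unadjusted p under 0.05 in limma was reached by 2, as by 32% of all genes. The median log2 difference was 0.12. Col14a1, which coats collagen I fibrils, read 9.35 and 9.38 in IL13-TG lungs, against 7.75, 7.56, 8.26 and 8.54 in WT lungs. Both IL13-TG lungs were above every WT lung, and the 4 WT lungs were spread over nearly 1 log2 unit. The log2 difference was 1.34 ± 0.25 (SE; adjusted p = 0.00854 in limma). The call was lost without IL13-TG replicate 1 (adjusted p = 0.0708) or IL13-TG replicate 2 (0.0657), with differences of 1.35 and 1.32. A second probe set rose by 1.81 (adjusted p = 0.00216 over all probe sets), and the last, near the floor in both genotypes, had a difference of 0.01.

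Col12a1 encodes the near relative of Col14a1 that also sits on collagen I fibrils. It read 5.85 and 5.74 in IL13-TG lungs, against 7.22, 6.91, 7.44 and 7.56 in WT lungs. The gap between the groups exceeded 1 log2 unit, and the difference was -1.49 ± 0.18 (adjusted p = 0.00106 in limma). The other 3 probe sets of Col12a1 did not follow: their differences were -0.05, -0.03 and 0.45, and the last was called higher (adjusted p = 0.0439 over all probe sets) at values of 3.88 and 3.73 in IL13-TG lungs, against 3.25, 3.38, 3.48 and 3.31 in WT lungs. The probe set called higher was near the floor in WT lungs, and that with -0.03 was near the floor in both genotypes. With the mean of all its probe sets Col12a1 had a difference of -0.28 (adjusted p = 0.114). The fall is thus the reading of the probe set with the highest mean, and whether the others detect the transcript was not tested.

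The other FACIT genes did not pass. Col16a1, found in fibrils and near basement membranes, had a log2 difference of -0.40 (adjusted p = 0.22 in limma). Col9a1, Col9a2 and Col9a3, the chains of the cartilage collagen IX, had 0.21, 0.12 and 0.28, and Col19a1, Col20a1 and Col22a1 had 0.01, 0.01 and 0.13. Col19a1 was near the floor in both genotypes.

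In the class of other collagens 0 of 14 genes were higher and 3 were lower, against 8.43% and 10.5% of all genes. An unadjusted p under 0.05 in limma was reached by 5, as by 32% of all genes. The median log2 difference was 0.06. Col13a1 encodes a collagen anchored in the cell membrane at adhesion sites. It read 6.73 and 6.89 in IL13-TG lungs, against 7.71, 7.43, 7.69 and 7.73 in WT lungs. The groups were well apart, with a difference of -0.83 ± 0.13 (SE; adjusted p = 0.00321 in limma). In the authors' deposited table this was the single collagen probe set with a q-value under 0.05 (0.0497), against 846 of 45037 probe sets (1.88%).

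Col23a1, another membrane-anchored collagen, read 6.37 and 6.76 in IL13-TG lungs, against 7.90, 8.26, 7.54 and 7.07 in WT lungs. WT replicate 4 lay closest to the IL13-TG lungs and the ranges did not overlap. The log2 difference was -1.13 ± 0.29 (adjusted p = 0.0305 in limma), and 2 of its 3 probe sets were called lower while the last had -1.14 (adjusted p = 0.12). It was not called without IL13-TG replicate 1 (0.218), IL13-TG replicate 2 (0.0876), WT replicate 1 (0.0756) or WT replicate 3 (0.0532). Col17a1 and Col25a1, likewise membrane-anchored, had differences of -0.52 (adjusted p = 0.15) and 0.15 (0.529). For Col17a1, the hemidesmosome collagen of basal epithelium, IL13-TG replicate 1 read 4.71 and IL13-TG replicate 2 read 3.87, against 4.63 to 4.96 in WT lungs. Without IL13-TG replicate 1, which read within the WT range, its difference was -0.94. Of 8 basal and squamous epithelial markers 0 were higher and 0 lower, against 8.43% and 10.5% of all genes. Krt15 was furthest from 0 (-0.62), and without WT replicate 3 the count of higher ones was 1.

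Col8a1 and Col8a2 encode the short chains of the network collagen VIII, made by vessel walls among others. Col8a2 read 4.96 and 4.87 in IL13-TG lungs, against 5.90, 6.30, 5.49 and 5.58 in WT lungs. The ranges did not overlap, and the log2 difference was -0.90 ± 0.21 (adjusted p = 0.0214 in limma). It was not called without IL13-TG replicate 1 (0.112), IL13-TG replicate 2 (0.13), WT replicate 1 (0.0561), or IL13-TG replicate 2 and WT replicate 4 together (0.103). Col8a1 had a difference of -0.58 (0.114), with 1 WT lung inside the IL13-TG range. Without that lung, WT replicate 2, it was -0.74 (0.0148), but leaving out the array that narrows a difference favours a call.

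Collagen VI, the beaded filament of connective tissue, showed small positive differences in its main chains: Col6a1 0.14, Col6a2 0.20 and Col6a3 0.23, none of which passed (adjusted p = 0.545, 0.593 and 0.549 in limma). Col6a4 and Col6a5 had -0.05 and 0.25, and Col6a5 was near the floor in both genotypes. Col7a1, the anchoring fibril under epithelia, had 0.21, and Col10a1 and Col26a1 had 0.08 and 0.03.

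Over probe sets, 6 of the 82 collagen probe sets were higher (7.32% against 5.39% of all 45037) and 12 were lower (14.6% against 5.99%), at an adjusted p under 0.05 over all probe sets. The higher ones belonged to Col1a1, Col3a1, Col12a1 (near the floor in WT lungs) and Col14a1. The lower ones belonged to Col4a3, Col4a4, Col4a5, Col4a6, Col8a2, Col12a1, Col13a1 and Col23a1, some of them with more than 1 probe set. Probe sets of 1 gene are repeat readings, and the share over all probe sets includes those without a symbol. These shares are therefore no count of separate genes. Single arrays moved these counts: without IL13-TG replicate 1 they were 1 higher and 3 lower, without IL13-TG replicate 2 they were 1 and 2, and without WT replicate 1 they were 2 and 6. Without WT replicate 2 there were 3 higher and 14 lower collagen probe sets, and without IL13-TG replicate 2 and WT replicate 4 together 4 and 4.

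**Figure D3:**
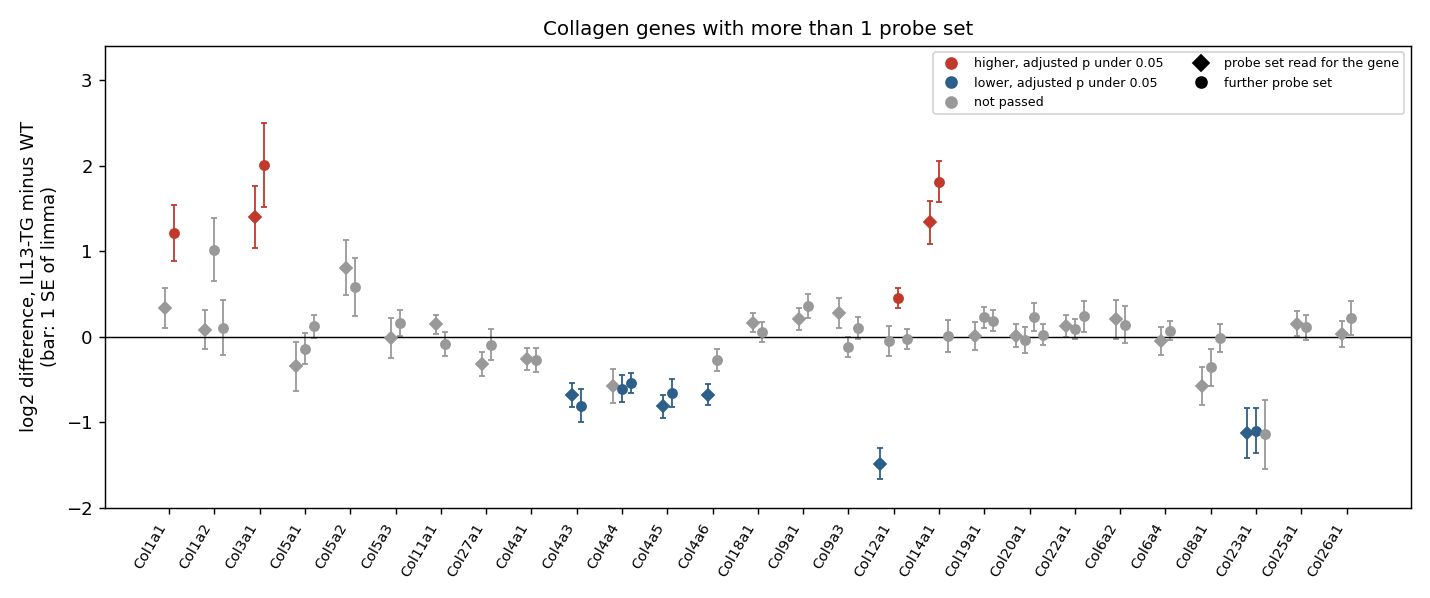
Log2 difference, IL13-TG minus WT, with 1 SE, of every probe set of the 27 collagen genes that have more than 1. Diamonds are the probe sets read for the gene and circles the further ones, coloured by their call over all probe sets. The Col4a3, Col4a4 and Col4a5 probe sets lie together, from -0.81 to -0.54, whereas those of Col12a1 run from -1.49 to 0.45 and those of Col1a1 read 0.34 and 1.21.

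Collagens I and III occur in the same fibrils, so their balance was followed within each array. Col3a1 minus Col1a2 was 1.11 and 1.26 in IL13-TG lungs, against -0.26, -0.56, -0.09 and 0.37 in WT lungs. Both IL13-TG lungs lay above the WT range. The group difference on the log2 scale was 1.32, with an exact two-sided permutation p = 0.133, the smallest that 2 against 4 samples allow. With the second probe set of both genes the difference was 0.99, and with the first of Col3a1 and the second of Col1a2 it was 0.38, each with ranges apart and the same p. Col3a1 minus Col1a1, read from the first probe sets, differed by 1.07, again with ranges apart and that p. The second Col1a1 probe set had a log2 difference of 1.21, against 1.40 for Col3a1. Read from it, the balance of IL13-TG replicate 1 (Col3a1 12.77, Col1a1 7.72) was not above that of WT replicate 4 (11.93 and 6.87). The size of the difference, and for Col1a1 the separation of the ranges, thus changed with the probe sets read.

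Genes that modify and fold procollagen moved in both directions, with a median log2 difference of 0.04. Of 24 measured, 5 were higher and 4 lower, against 8.43% and 10.5% of all genes, and 15 did not pass. Colgalt1, which adds galactose to hydroxylysine, read 10.38 and 10.31 in IL13-TG lungs, against 9.45, 9.48, 9.57 and 9.62 in WT lungs, a rise of 0.82 ± 0.11 (adjusted p = 0.00148 in limma). Its relative Colgalt2 was lower (-0.99), as were Plod2 (-0.90), which hydroxylates lysines of the chain ends for stable crosslinks, and the prolyl hydroxylase gene P3h3 (-0.72). Plod1 (0.66), P4hb (0.58), P4ha3 (0.52) and Plod3 (0.52) were higher and P4ha1 (-0.62) lower. Serpinh1, the collagen chaperone HSP47, did not pass, with a difference of 0.32. Colgalt2 was not called without IL13-TG replicate 1 (adjusted p = 0.193), IL13-TG replicate 2 (0.122), WT replicate 1 (0.0591) or WT replicate 3 (0.0749), Plod2 without IL13-TG replicate 1 (0.0785), and P3h3 without IL13-TG replicate 1 (0.055) or IL13-TG replicate 2 (0.0559). The counts of higher and lower genes were 1 and 0 without IL13-TG replicate 1, 2 and 1 without IL13-TG replicate 2, and 3 and 2 without WT replicate 1 or WT replicate 3.

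Of 11 measured genes that cut or crosslink procollagen outside the cell, 1 was higher and 1 lower, against 8.43% and 10.5% of all genes. The other 9 did not pass, and the median was -0.04. Pcolce2, an enhancer of the protease that removes the C-terminal propeptide, read 9.78 and 9.79 in IL13-TG lungs, against 11.45, 11.58, 11.60 and 11.09 in WT lungs, a difference of -1.64 ± 0.16 (adjusted p = 0.000302 in limma). Tgm2, a transglutaminase that crosslinks matrix proteins, read 13.26 and 13.01 in IL13-TG lungs, against 11.93, 11.97, 11.94 and 12.01 in WT lungs, a difference of 1.17 ± 0.11 (adjusted p = 0.000306). The lysyl oxidase gene Lox, whose enzyme starts the crosslinks of collagen fibrils, had a difference of -0.26 and did not pass. Without WT replicate 2 the count of lower genes was 2.

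Proteoglycans and glycoproteins that bind collagen fibrils were lower for 9 and higher for 4 of 22 genes, against 10.5% and 8.43% of all genes. Their median was -0.53. Fn1, the fibronectin on which collagen fibrils assemble, read 12.09 and 12.42 in IL13-TG lungs, against 10.38, 10.50, 10.27 and 10.29 in WT lungs, a rise of 1.89 ± 0.13 (adjusted p = 5.58e-05 in limma). Several leucine-rich repeat proteins were lower: Ecm2 had -1.70, Fmod (fibromodulin) -1.59 and Omd (osteomodulin) -1.56, and Ogn and Prelp were lower as well. The remaining lower genes were Tnxb, Dpt, Postn and Sparcl1. Decorin (Dcn, -0.65) and lumican (Lum, -1.41), members of the same family, did not pass. Podocan (Podn), another member, was called higher, a call lost without WT replicate 1 (0.70, adjusted p = 0.0612 in limma) or WT replicate 3 (0.92, 0.0736). Without IL13-TG replicate 2 Fmod had -0.82 (adjusted p = 0.184) and Tnxb -0.75 (0.217). Fmod was also not called without WT replicate 1 (0.0704) or IL13-TG replicate 2 and WT replicate 4 together (0.199), and Omd not without the last pair (0.0551). The count of lower genes was 4 without IL13-TG replicate 2.

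Partners of collagen IV in the basement membrane were lower for 6 and higher for 0 of 20 genes, against 10.5% and 8.43% of all genes. Their median log2 difference was -0.45. Pxdn, the peroxidase that forms the sulfilimine bonds between collagen IV molecules, read 9.18 and 9.16 in IL13-TG lungs, against 10.15, 9.84, 10.08 and 10.06 in WT lungs, a difference of -0.86 ± 0.12 (adjusted p = 0.00211 in limma). Hmcn1 (-0.74) and the laminin genes Lama2 (-0.72) and Lamb1 (-0.68) were the next in size, and Lamb2 (-0.66) and Nid1 (-0.49) were also lower. Hspg2, which encodes perlecan, had -0.23 and did not pass. Hmcn1 (adjusted p = 0.142), Lama2 (0.0917) and Lamb1 (0.166) were not called without IL13-TG replicate 1. Without IL13-TG replicate 2 Hmcn1 had an adjusted p of 0.111 and Lamb1 of 0.0947, without WT replicate 1 they had 0.0547 and 0.0606, and without WT replicate 3 Lamb1 had 0.0607. The count of lower genes was 1 without IL13-TG replicate 1, 2 without IL13-TG replicate 2, 3 without WT replicate 1 and 10 without WT replicate 2.

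Among enzymes, inhibitors and receptors of collagen breakdown 9 of 20 genes were higher and 2 lower, against 8.43% and 10.5% of all genes. Their median log2 difference was 0.57. Ctsk, the lysosomal collagenase cathepsin K, read 12.53 and 12.70 in IL13-TG lungs, against 7.82, 8.01, 7.54 and 7.47 in WT lungs, a difference of 4.90 ± 0.17 (adjusted p = 2.2e-06 in limma). Mmp13, a collagenase that cuts intact fibrils, read 6.53 and 6.54 in IL13-TG lungs, against 2.86, 3.43, 3.29 and 3.25 in WT lungs, where it was near the floor. In both genes the lowest IL13-TG lung was above the highest WT lung by over 3 log2 units. Timp1, an inhibitor of such enzymes, was higher by 2.87 and Mrc1, a macrophage receptor that takes up collagen, by 2.50, while the inhibitors Timp3 (-1.13) and Timp2 (-0.52) were lower. Without IL13-TG replicate 1 the count of lower genes was 0 and without IL13-TG replicate 2 it was 1. Macrophage markers rose in the same lungs, 9 of 11 higher and 0 lower, with a median of 3.37 and a mean of 11.56 in both IL13-TG lungs, against 8.86 to 8.97 in WT lungs. Gpnmb (4.68), Marco (3.65), Ms4a7 (3.61) and Cd68 (3.59) led them, and none of the 11 was near the floor in both genotypes. Mrc1 is on both lists, and the part of macrophages in the rise of the collagen-degrading genes was not tested.

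Of 14 collagen receptor genes 4 were higher and 2 lower, against 8.43% and 10.5% of all genes, with a median of 0.20. Lair1, an inhibitory collagen receptor of leukocytes, was higher by 1.80 and Cspg4 by 0.89, and the genes of the collagen-activated kinase Ddr2 (-0.77) and of the integrin chain Itga1 (-0.73) were lower. Ddr2 was not called without IL13-TG replicate 2 (adjusted p = 0.141 in limma), nor Itga1 without IL13-TG replicate 1 (0.0515). Without either IL13-TG replicate the counts were 2 higher and 1 lower, and without WT replicate 1, WT replicate 2 or WT replicate 3 there were 2 higher.

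**Figure D4:**
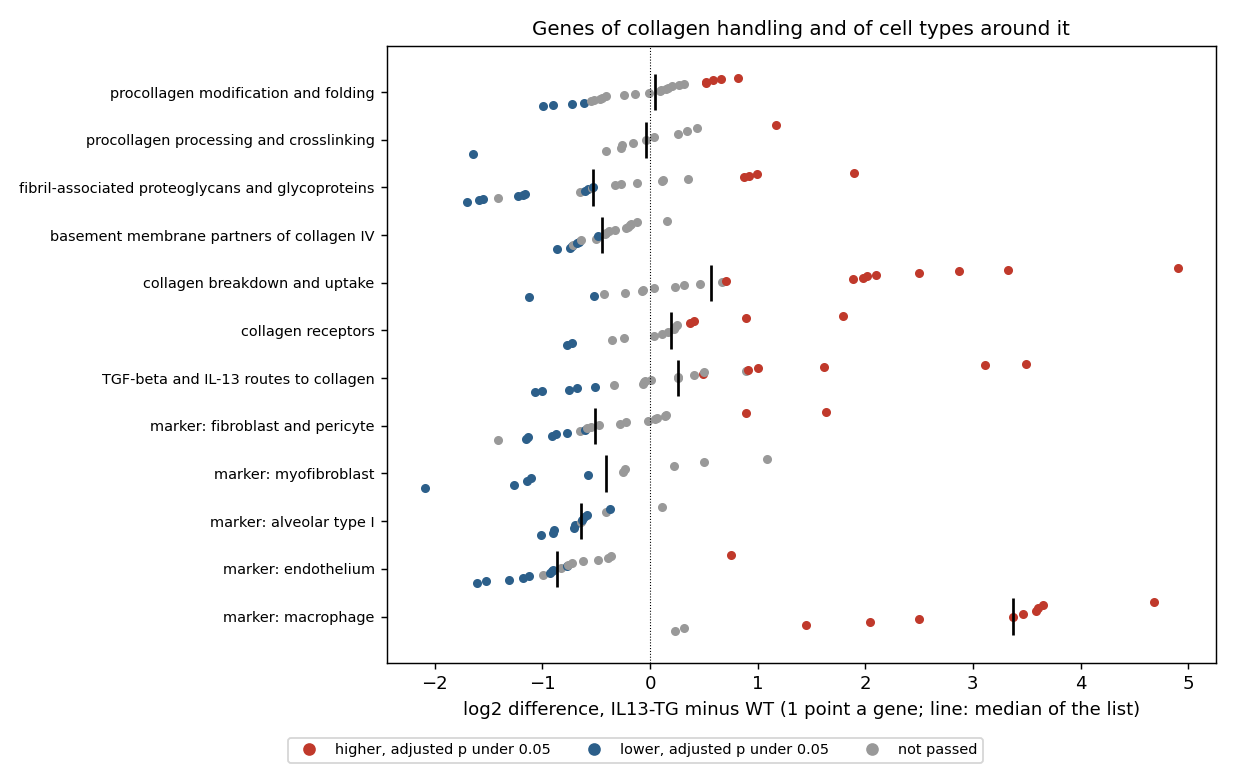
Log2 difference, IL13-TG minus WT, of each gene on 7 lists of collagen handling and 5 lists of cell type markers; 1 point is a gene, the vertical line is the median of the list, and colours give the call. Breakdown genes reach 4.90 to the right, while basement membrane partners and alveolar type I markers lie mostly left of 0.

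Signals that act on collagen synthesis were mixed, with 6 of 21 genes higher and 5 lower (median 0.26), against 8.43% and 10.5% of all genes. Tgfb1, the main profibrotic cytokine of the list, read 8.58 and 8.91 in IL13-TG lungs, against 7.07, 7.21, 7.09 and 7.16 in WT lungs, a difference of 1.61 ± 0.12 (adjusted p = 8.79e-05 in limma). Igf1 (3.50) and the chemokine gene Ccl2 (3.11) rose further, whereas Ccn2, a matrix-inducing target of TGF-beta, was lower (-1.07), at 10.98 and 10.94 in IL13-TG lungs, against 12.31, 12.13, 12.06 and 11.62 in WT lungs. Ranges of these 4 genes, picked for large differences, did not overlap. Among all genes 19.7% had both IL13-TG values above all WT values and 22% had both below. The count of lower genes was 2 without either IL13-TG replicate and 3 without WT replicate 1.

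Markers of the cells that make most fibrillar collagen were read beside the 8.43% of all genes called higher and the 10.5% called lower. Of 20 fibroblast and pericyte markers 2 were higher and 6 lower (median -0.51), with means of 8.47 and 8.35 in IL13-TG lungs, against 8.50 to 8.97 in WT lungs. Meg3 (1.63) was higher, and Inmt (-1.15), Tcf21 (-1.13) and Pdgfra (-0.91) were lower; without IL13-TG replicate 1 the count of lower markers was 3. Of 10 myofibroblast markers 0 were higher and 5 lower (median -0.41), with means of 7.43 and 7.40 in IL13-TG lungs, against 7.61 to 8.12 in WT lungs. Cnn1 (-2.09), Myl9 (-1.26), Tagln (-1.14) and Cthrc1 (-1.10) were lower. Myl9 was not called without IL13-TG replicate 1 (adjusted p = 0.0843 in limma) or IL13-TG replicate 2 (0.0547), nor Cthrc1 without IL13-TG replicate 2 (0.063). Without either IL13-TG replicate the count of lower markers was 3, and without WT replicate 4 the count of higher ones was 1. None of the fibroblast, pericyte and myofibroblast markers was near the floor in both genotypes, and their part in the rise of Col3a1 and Col14a1 was not tested.

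Tissues that a lobe can carry along were followed the same way, beside the 8.43% of all genes called higher and the 10.5% called lower. Of 9 mesothelial markers 0 were higher and 0 lower, with Upk3b furthest from 0 (-0.88, adjusted p = 0.156 in limma), and without WT replicate 2 the count of lower ones was 2. Of 6 nerve and Schwann cell markers Pmp22 was lower (-0.78), a call lost without IL13-TG replicate 1 (0.0598) or IL13-TG replicate 2 (0.0588). Heart muscle markers were lower for 5 of 10 genes, led by Myh6 (-3.71), Tnnt2 (-3.07), Myl4 (-2.83) and Tnni3 (-2.70), and fat markers for 4 of 10, led by Car3 (-4.52), Thrsp (-2.96), Cidec (-2.85) and Pck1 (-1.99). The count of lower heart markers was 1 without IL13-TG replicate 2 or WT replicate 1, 2 without WT replicate 3 and 8 without WT replicate 2. The count of lower fat markers was 1 without IL13-TG replicate 2 or WT replicate 1 and 2 without WT replicate 3, and 1 fat marker was higher without WT replicate 4. Of these 8 genes Cidec stayed called without any 1 array, and Myh6 had an adjusted p of 0.0559 without WT replicate 1. Without IL13-TG replicate 2 the differences of the heart genes were smaller, at -1.41 for Tnnt2 (adjusted p = 0.154), -1.37 for Myl4 (0.29) and -1.49 for Tnni3 (0.223). The fat genes then had -1.60 for Car3 (0.186), -1.76 for Thrsp (0.219) and -1.68 for Pck1 (0.238). Leaving out IL13-TG replicate 2 and WT replicate 4, the arrays at the 2 ends of the heart and fat range, did not even out these tissues. The lone IL13-TG lung left had a heart marker mean of 7.02, against 7.56 to 8.28 in the WT lungs left. Its fat marker mean was 6.92, against 7.13 to 7.77. That fit therefore cannot part these tissues from genotype, and their part in the collagen differences was not tested.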

How the data were processed

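The authors deposited RMA log2 values of 45037 probe sets in 6 arrays; RMA is named in the submitters' processing notes without a version, and the RNA came from TRIzol extraction per the labels' protocols. RMA summarises probes on a compressed log scale, so weak transcripts near the floor show smaller changes than they have. The authors' deposited table also gives a q-value per probe set, by a method not given in the sources used here. Another 6 single-array columns in that table went unused: no sample label matches their names. Of the probe sets 34945 carried 1 gene symbol, 932 several and 9160 none, and symbols were updated by Entrez ID in a RefSeq annotation (GRCm38.p6), which matched 34741. A gene's value is that of its single-symbol probe set whose mean over the arrays was highest, which gave 18193 genes.

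The fit of IL13-TG (n = 2) against WT (n = 4) used limma's lmFit and untrended eBayes (limma 3.58.1, R 4.3.3; 4 residual degrees of freedom, Benjamini-Hochberg over all genes or all probe sets, threshold 0.05), checked on simulated data. With 6 arrays the precision is low, and a fit with a lone IL13-TG array borrows its spread from WT. The collagen members, their classes, the 18 gene lists (260 measured of 277 entries) and the tests were chosen with earlier results of these data known. Values in every array are given for collagen genes past the threshold and for Col1a1, Col1a2, Col3a1, Col4a1 and Col4a2; of a list, up to 4 genes with the largest differences past the threshold are named, or the largest where none passed. Col4a4, Col5a2, Col8a1, Col15a1 and Col17a1, the further probe sets and other list genes described were chosen after their values were seen, as were the differences between collagen genes within an array. The arrays left out for those collagen genes and for Col4a2 were picked likewise, so a call gained this way is no support for a difference. Promoter windows are those of RefSeq in GRCm38.p6, from 250 bases before to 50 after a start. Plots used Python 3.11.15 and matplotlib 3.10.9.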

Additional observations from a re-analysis of the deposited data

Results flagged for a closer look

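For 2 collagen genes 1 of the 4 WT lungs stood far from the other 3, its gap to the nearest lung taking up more of the group's whole range than Dixon's critical value. Col13a1 was low in WT replicate 2, at a log2 value of 7.43, with the gap making up 0.851 of the range. Col15a1 was high in WT replicate 4, at 5.87, with the gap making up 0.901 of the range. All 42 genes were screened in this way, and at the 95% level used, about 1 group in 20 is marked by chance.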

How the results depend on the processing

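Over 18 alternatives Col4a5 and Col13a1 kept their call in all and Col12a1 in 17. Col14a1 kept it in 16, Col4a3 in 15, Col3a1 in 14 and Col23a1 in 13. Col4a6 kept it in 15 of the 17 alternatives that held it, and Col8a2 in 12 of 16. The mean of a gene's probe sets ended the call of Col12a1 (-0.28, adjusted p = 0.114 in limma), robust moderation that of Col3a1 (1.40, 0.0501), leaving 1 higher collagen gene, and the probe set with the largest interquartile range that of Col23a1 (-1.14, 0.0902). That last choice called Col1a1 higher (1.21, 0.0339) and turned the procollagen folding gene Tmem38b, at -0.01, to 0.43 (0.0443), since it reads another probe set. Filters on low values called Col4a2 lower (0.0496 and 0.0445), but they also removed genes called in the main fit. The filter at a log2 value of 6 removed Col8a2 and kept 8 of the main collagen calls. The filter at the median expression removed Col8a2 and Col4a6 and kept 7. The 6 fits that leave out 1 array gave 0 to 3 higher and 3 to 9 lower collagen genes, 1 to 6 higher and 2 to 14 lower collagen probe sets, and 731 to 1578 higher and 580 to 2016 lower genes in all. Without IL13-TG replicate 2 and WT replicate 4, there were 4 lower collagen genes, 4 lower collagen probe sets, and 1000 higher and 1033 lower genes in all. The labels do not say that a replicate number marks a shared litter or day. Same-numbered arrays deviated with r = -0.08 and 0.27, and IL13-TG replicate 1 and WT replicate 4 also had 0.27. Because 2 IL13-TG arrays deviate from their mean as mirror images, these values cannot show a pairing. The replicate block leaves 1 residual degree of freedom and no partner for WT replicates 3 and 4. With it 5 collagen genes were higher and 8 lower, against 1609 and 2150 of all 18193 genes. Of the collagen probe sets 11 were higher and 13 lower. Col1a1 (0.64), Col5a2 (1.14) and Col6a3 (0.59) joined the higher genes. Arrays hold no read depth, and of the 42 collagen genes 4 were near the floor in both genotypes, where a difference may not be measurable.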
